A study of Homo sapiens with 2 samples.

Results

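The genes described here are the zinc finger genes of human chromosome 19 whose array annotation carries a symbol of the form ZNF followed by digits. The rule found 169 such genes on the second of 2 promoter arrays, called chIP2 after its sample title, out of 1212 chromosome 19 genes and 8891 genes named on that array and 17280 genes over both arrays. All 169 symbols could be matched to the RefSeq gene table, 158 by the current symbol and 11 by an older one. The older ones include ZNF537 (now TSHZ3, a teashirt family gene), ZNF499 (now ZBTB45), ZNF447 (now ZSCAN18), ZNF342 (now ZNF296) and the pseudogenes ZNF137P, ZNF542P and ZNF702P, so the symbol rule does not pick out 1 protein type.

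The study asked where the transcription factor GATA1 contacts promoters in Meg-01, a human megakaryocytic leukemia cell line that was left untreated for this experiment. Chromatin of 1 preparation was pulled down with the GATA1 (C-20) antibody, which recognizes the C-terminus of GATA1, or with normal goat IgG as the background. The amplified IP DNA was labeled with Cy5 and the amplified IgG DNA with Cy3, and both were hybridized together by ChIP-on-chip. The 2 arrays of the set carry different probes, so each probe was measured in 1 hybridization with no dye swap. With 1 measurement per probe no test between the pull-downs or between gene groups was made, and all shares and medians below are descriptions of this hybridization.

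Most chromosome 19 ZNF genes encode C2H2 zinc finger proteins that arose by repeated local duplication and lie in tandem clusters. Many carry a KRAB domain, which recruits the co-repressor TRIM28 (KAP1) and through it the histone methyltransferase SETDB1, and are known for silencing transposable elements. GATA1, itself a zinc finger protein of another class, directs erythroid and megakaryocytic genes and binds the core sequence GATA flanked by A or T on one side and A or G on the other.

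Probes lay 183 bp apart (median) on chromosome 19, and the values below are means of log2(IP/IgG) over 3 neighboring probes (a window), with the median of the array set to 0. Windows whose mean reached 1, a 2-fold excess of IP over IgG, were called enriched, and those at -1 or below depleted. The median spot signal of the 3082 probes of the ZNF genes was 696 for the IP dye and 547 for the IgG dye, compared with 340 and 303 for the negative control spots, and 0 of the probes were saturated. The log2 ratio had an SD of 0.97 over the array, and 480 spots of 1 repeated control probe had an SD of 0.04. The repeated control probe gives spot noise at its own brightness and says nothing of the variation between immunoprecipitations.

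Promoters of 6 genes with an IP excess close to the start are shown, 3 without and 3 with a GATA match. Each run is the 250 bases before the RefSeq start in build GRCh38.p14, 5′ to 3′ on the strand of the gene. Capitals mark a GATA match, which is the hexamer AGATAA, the hexamer AGATAG, the hexamer TGATAA or the hexamer TGATAG on either strand. ZNF350, ZNF584 and ZNF566 are shown as genes with a high window close to the start whose runs hold no such match. Windows higher than that of ZNF566 (1.61) lay within 1000 bp of the start in ZNF432 (1.68) and ZNF536 (1.64), which hold a match. Those of ZNF613 (1.67), ZNF628 (1.65) and ZNF653 (1.62), without a match, were higher too. ZNF432, ZNF599 and ZNF175 are shown as genes that combined an enriched window within 1000 bp of the start with a match. ZNF536 (1.64), ZNF345 (1.30) and ZNF582 (1.17) did so too and are not shown. The choice among these genes was made after their values were seen.
ZNF350 (chr19:51986841-51987090, minus strand): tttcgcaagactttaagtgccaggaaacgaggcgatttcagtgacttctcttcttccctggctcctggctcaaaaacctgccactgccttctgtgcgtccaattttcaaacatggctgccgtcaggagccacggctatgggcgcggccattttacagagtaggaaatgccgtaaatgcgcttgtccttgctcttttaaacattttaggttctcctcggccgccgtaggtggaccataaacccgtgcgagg
ZNF584 (chr19:58408399-58408648, plus strand): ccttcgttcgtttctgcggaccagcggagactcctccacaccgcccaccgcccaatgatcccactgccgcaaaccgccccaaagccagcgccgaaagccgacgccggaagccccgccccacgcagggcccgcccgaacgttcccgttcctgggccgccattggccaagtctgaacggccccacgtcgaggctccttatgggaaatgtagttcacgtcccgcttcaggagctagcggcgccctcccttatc
ZNF566 (chr19:36489562-36489811, minus strand): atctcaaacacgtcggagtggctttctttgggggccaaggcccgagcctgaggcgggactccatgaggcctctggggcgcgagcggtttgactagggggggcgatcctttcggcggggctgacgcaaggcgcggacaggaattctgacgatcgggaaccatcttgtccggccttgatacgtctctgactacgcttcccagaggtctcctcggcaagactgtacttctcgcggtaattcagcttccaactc
ZNF432 (chr19:52048839-52049088, minus strand): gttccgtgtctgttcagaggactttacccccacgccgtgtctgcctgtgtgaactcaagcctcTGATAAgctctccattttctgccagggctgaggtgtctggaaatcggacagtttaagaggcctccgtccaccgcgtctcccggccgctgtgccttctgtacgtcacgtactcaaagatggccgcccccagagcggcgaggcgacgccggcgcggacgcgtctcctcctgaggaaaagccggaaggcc
ZNF599 (chr19:34773216-34773465, minus strand): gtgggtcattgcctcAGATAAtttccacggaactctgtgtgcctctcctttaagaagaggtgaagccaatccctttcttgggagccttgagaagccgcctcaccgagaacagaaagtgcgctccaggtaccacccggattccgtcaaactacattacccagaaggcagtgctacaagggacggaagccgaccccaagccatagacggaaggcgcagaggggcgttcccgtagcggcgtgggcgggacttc
ZNF175 (chr19:51571033-51571282, plus strand): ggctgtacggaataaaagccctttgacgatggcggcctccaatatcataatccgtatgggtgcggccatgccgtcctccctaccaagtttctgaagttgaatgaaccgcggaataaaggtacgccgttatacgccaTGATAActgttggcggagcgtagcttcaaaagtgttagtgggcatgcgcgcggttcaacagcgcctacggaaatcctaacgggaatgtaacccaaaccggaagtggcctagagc
The match lay 187 bases before the start in ZNF432, 235 bases before it in ZNF599 and 114 bases before it in ZNF175. The array's own positions are in a build that is not given in the sources used here, and its annotated starts can differ from these. By the array's starts, the highest window was centered 640 bp upstream in ZNF432, 451 bp upstream in ZNF566 and inside the gene in ZNF599. These centers lie outside the 250 bases before the array's start, so a match in a run is not placed under the window.

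Of the 169 ZNF genes, 159 had at least 1 window. The other 10 (ZNF439, ZNF69, ZNF443, ZNF431, ZNF208, ZNF254, ZNF383, ZNF228, ZNF28 and ZNF417) had too few neighboring probes. The genes had between 1 and 47 probes with a median of 18, and 26 of them shared at least 1 probe with another gene. An enriched window was found in 56 of the 159 genes (35.2%). The same call was made for 54.8% of all genes of the array and 42.6% of the other chromosome 19 genes, so the share in the ZNF genes lay below both backgrounds. A depleted window was found in 50 ZNF genes (31.4%), compared with 50.4% of all genes of the array and 19.8% of the other chromosome 19 genes. The depleted count depended on the background correction, and with normexp 19 ZNF genes (11.9%) and 4.59% of the other chromosome 19 genes had such a window. Both kinds were present in 18 ZNF genes and neither in 71. At 3-fold, 13 ZNF genes (8.18%) had an enriched window, compared with 19.4% of all genes and 9.19% of the other chromosome 19 genes.

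The median of the highest windows was 0.82 in the ZNF genes, 0.92 in the 1023 other chromosome 19 genes with a window and 1.06 over all genes of the array. The median of the lowest windows was -0.73 in the ZNF genes and -0.61 in the other chromosome 19 genes. Values lay on both sides of the limit without a gap, with 1.0042 and 0.9893 as the nearest highest windows above and below it. The number of windows differed between the groups (median 15 in the ZNF genes and 18 in the other chromosome 19 genes), and the highest of many windows is higher by construction. Among genes with at most 15 windows, 27.7% of 83 ZNF genes and 31.9% of 423 other chromosome 19 genes had an enriched window, and 16.9% and 13.2% a depleted one. Among genes with 16 to 22 windows the shares were 40.8% of 49 and 44.5% of 274 for enriched, and 44.9% and 20.8% for depleted windows. With over 22 and at most 31 windows they were 40.0% of 15 and 51.0% of 200 for enriched, and 60.0% and 24.0% for depleted windows. Above 31 windows they were 58.3% of 12 and 61.1% of 126 for enriched, and 41.7% and 33.3% for depleted windows. With genes put into 4 classes of mean brightness, the order for enriched windows turned in the dimmer ones. There the shares were 44.4% of 9 and 75.0% of 12 ZNF genes, compared with 31.8% and 45.2% of the others. In the brighter classes they were 31.2% of 32 and 31.1% of 106, compared with 46.7% and 41.2%.

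**Figure D1:**
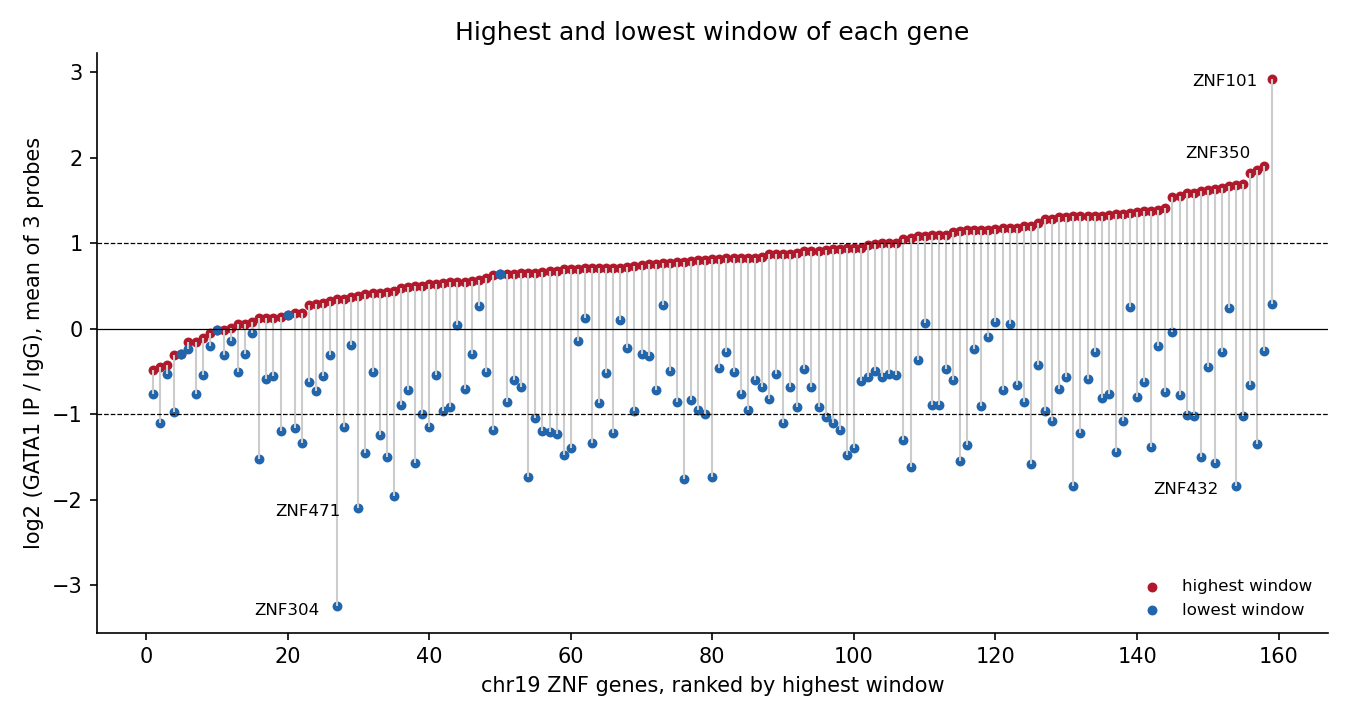
Highest (red) and lowest (blue) 3-probe window of each of the 159 chromosome 19 ZNF genes with a window, on the log2(IP/IgG) scale, with genes ranked along the x axis by their highest window and dashed lines at 2-fold. The 56 genes right of the crossing at 1 form a slope from 1.0042 to 1.90 with ZNF101 alone above it at 2.92, and the lowest windows show no matching order.

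ZNF genes on other chromosomes gave a further comparison. Of the 89 with a window on chIP2, 43 (48.3%) had an enriched and 49 (55.1%) a depleted window, near the array's background on both sides. On chIP1, the other array, the 124 ZNF genes had 65 (52.4%) with an enriched window and 58 (46.8%) with a depleted one, compared with 59.4% and 55.5% of all genes of that array. Over all genes of the other chromosomes on chIP2, 56.9% had an enriched and 55.0% a depleted window, so chromosome 19 genes as a whole lay lower on both sides. Among 11 chromosome 19 zinc finger genes with other symbols (the PEG3 and ZIM imprinted genes, ZFP, ZSCAN and ZNF585 genes, and ZFP36, whose fingers are of a different class), 4 had an enriched and 6 a depleted window.

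Values within the ZNF genes also differed along the distance from the start. In the 500 bp upstream of the start, the median window of the ZNF genes was 0.41 and 38 of 280 windows (13.6%) were enriched, from 23 genes, while 1 window was depleted. In the first 500 bp inside the gene the median was 0.42 and 37 of 338 windows (10.9%) were enriched. The other chromosome 19 genes had medians of 0.32 and 0.27 there, with 11.2% and 7.70% enriched, and all genes of the array had medians of 0.24 and 0.24 with 10.6% and 8.69%. From 3000 to 2000 bp upstream the order turned: the ZNF genes had a median of -0.28, the other chromosome 19 genes of 0.03 and all genes of the array of -0.15. In that interval 28 of 138 ZNF windows (20.3%) were depleted, from 15 genes, compared with 2.25% in the other chromosome 19 genes, 13.9% over the array and 12% in ZNF genes of other chromosomes. Without ZNF30, which held 4 of the 28, the share was 18.05%. From 4000 to 3000 bp upstream, 11.9% of the ZNF windows and 4.51% of the others were depleted, and 14.8% over the array, so the ZNF genes differed there from their chromosome 19 neighbors more than from the array. Past the start region on the other side, from 1000 to 2000 bp inside the gene, the medians were -0.21 and 0.09, and -0.04 over the array.

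**Figure D2:**
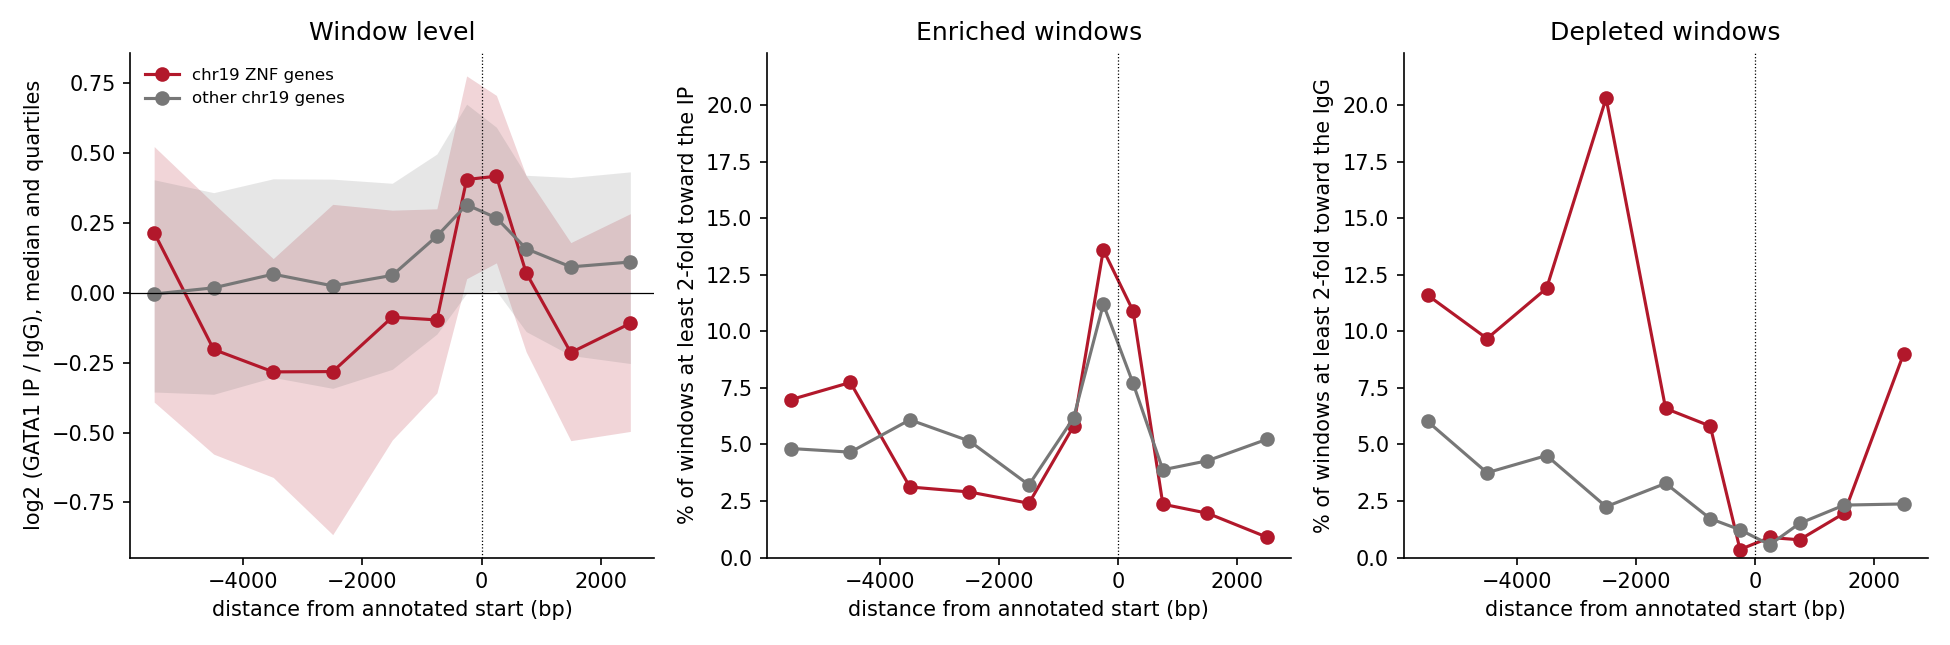
Windows by distance of the center probe from the annotated start, in bp (negative is upstream), for chromosome 19 ZNF genes (red) and other chromosome 19 genes (grey): median log2(IP/IgG) with the quartiles as bands (left), and the percentage of windows at least 2-fold toward the IP (middle) and toward the IgG (right). Both groups peak around the start, where the ZNF genes reach 0.42, and the ZNF genes dip to -0.28 between 4000 and 2000 bp upstream, where up to 20.3% of their windows are depleted and the other genes stay at 0.03 and 0.07.

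Over all distances the ZNF genes had 142 enriched (5.89%) and 136 depleted (5.65%) windows of 2409. The other chromosome 19 genes had 5.53% and 2.15% of 18233, and all genes of the array had 7.28% and 9.51%. The IP side thus held 51.1% of the windows past 2-fold in the ZNF genes, 72.0% in the other chromosome 19 genes and 43.3% over the array. The place of the extreme windows followed the same line. Of the 56 enriched genes, 19 had their highest window within 1000 bp upstream of the start, 15 in the first 1000 bp inside the gene and 12 over 2000 bp upstream. Of the 50 depleted genes, 27 had their lowest window over 2000 bp upstream, 14 over 2000 bp inside and 0 in the first 1000 bp inside. These places were not counted for other genes. Over all genes of the array, enriched windows were also most frequent in the 500 bp upstream of the start (10.6%). Depleted ones were most frequent there from 6000 to 4000 bp upstream (15.2%), so the pattern is not particular to the ZNF genes.

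When only windows centered within 1000 bp of the start were counted, the share in the ZNF genes was near that of the other chromosome 19 genes and below that of all genes. An enriched window was then found in 36 of 144 ZNF genes (25%), compared with 24.4% of 987 other chromosome 19 genes and 31.3% of all genes. A depleted window was found in 8 ZNF genes (5.56%), in 5.57% of the other chromosome 19 genes and in 17.3% of all genes. The highest of these windows had a median of 0.71 in the ZNF genes and 0.65 in the other genes.

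A value near the start (the mean of all probes within 1000 bp) and a value upstream (the mean of all probes from 6000 to 2000 bp upstream) were then computed for each gene with at least 3 probes in the region. The limits of both regions were chosen after the distance profile had been seen, so these values restate the profile gene by gene. The near-start value had a median of 0.27 in 141 ZNF genes and 0.25 in 977 other chromosome 19 genes. The upstream value had a median of -0.23 in 97 ZNF genes, of which 68 (70.1%) were below 0, and of 0.01 in 592 other genes (48.5% below 0). Over all genes of the array the median was -0.16 with 61.8% below 0, and in ZNF genes of other chromosomes -0.19 with 69.1%. An upstream value of -0.5 or less was found in 27 ZNF genes (27.8%) and 12.7% of the other chromosome 19 genes, but also in 26.4% of all genes of the array, and one of 0.5 or more in 11.3%, 12.5% and 9.87%. The upstream values of the ZNF genes thus lay near those of the array, and the other chromosome 19 genes lay above both. The near-start minus the upstream value was positive in 66 of 90 ZNF genes (73.3%), compared with 62.4% of the other chromosome 19 genes, 67.7% of all genes of the array and 70.9% of ZNF genes on other chromosomes. Its median in the ZNF genes was 0.51. The same difference had a median of 0.18 in 569 other chromosome 19 genes, 0.30 over the array, 0.30 in ZNF genes of other chromosomes and 0.33 in the ZNF genes of chIP1. Chromosome 19 genes that lay within 100 kb of a ZNF gene were in between, at 0.32, and those farther away were at 0.17.

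**Figure D3:**
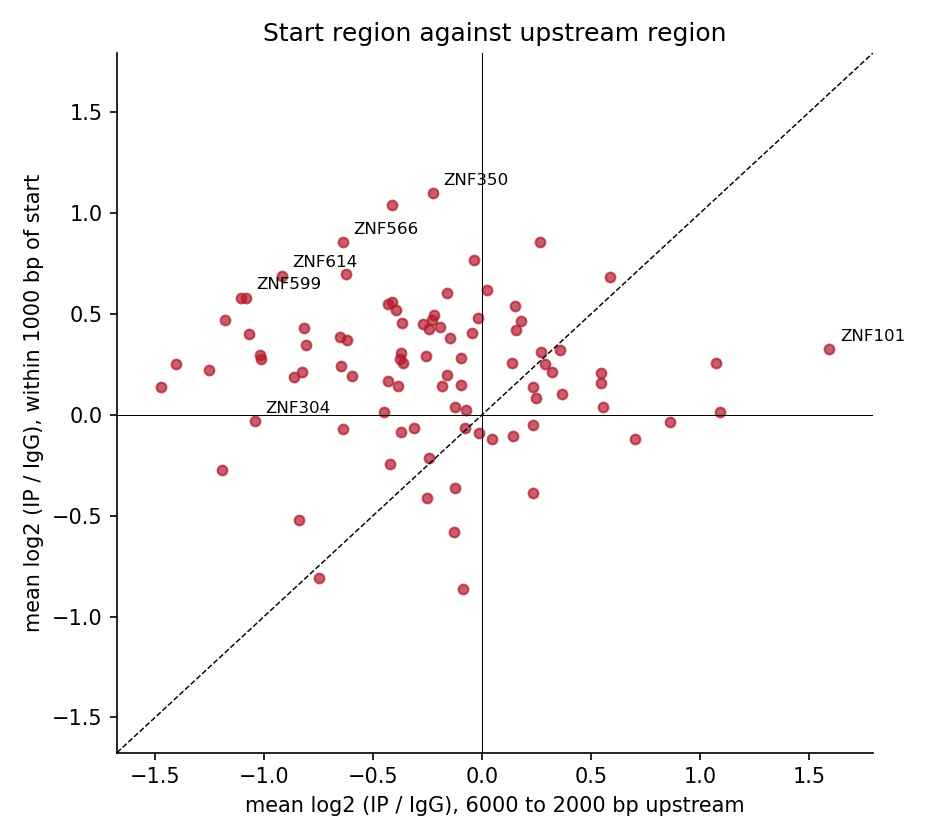
Each point is 1 of the 90 chromosome 19 ZNF genes with at least 3 probes in both regions, with its mean log2(IP/IgG) from 6000 to 2000 bp upstream (x axis) and within 1000 bp of the start (y axis); the dashed line marks equal values. The upper left quadrant, near-start above 0 and upstream below 0, holds 49 genes, and 66 of 90 lie above the line, with ZNF101 the farthest to the right at 1.59.

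Brightness differed between the 2 regions in the ZNF genes. Their windows from 5000 to 2000 bp upstream had median log2 intensities between 9.85 and 10.03, and those within 500 bp of the start 11.42 and 11.54, while the other genes changed less, from between 10.47 and 10.55 to 10.73 and 10.82. The array's probes were put into 4 equal classes of brightness. Among upstream probes of class 1, the dimmest, the median log2 ratio was -0.44 in the ZNF genes and 0.08 in the other genes, and in classes 2 and 3 it was -0.23 and -0.28 compared with 0.01 and -0.02. In class 4, the brightest, it was -0.04 in 172 ZNF probes and 0.02 in 1860 others. The upstream difference was thus largest in class 1 and smallest in class 4. The part of brightness in it was not tested further. The extreme windows showed the same split, since the highest windows of the 56 enriched genes had a median brightness at the 86.3rd percentile of the array's windows, and the lowest windows of the 50 depleted genes at the 48.4th.

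Among single genes, the highest window belonged to ZNF101, on chromosome 19 from 19635505 to 19635817, with a mean of 2.92 and its 3 probes at 2.18, 3.28 and 3.29. It lay 4987 bp upstream of the ZNF101 start, in a divergent promoter that the array also assigns to ATP13A1, the gene of an endoplasmic reticulum P-type ATPase. The mean signal there was 2802 in the IP and 425 in the IgG channel. ZNF101 itself had a near-start value of 0.33 over 3 probes, and with only probes assigned to a single gene its highest window was 0.30. From these data the window cannot be told apart between ZNF101 and ATP13A1. ZNF574 was alike: its highest window of 1.69, 4386 bp upstream from 47261830 to 47262090, was shared with GRIK5, a kainate receptor subunit gene, and its near-start value was -0.12. Over all 56 enriched genes, 14 had their highest window in common with another gene.

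ZNF350 (ZBRK1, a KRAB protein known to bind BRCA1 and repress GADD45A) had the second highest window at 1.90. It lay 86 bp upstream of the start from 57181768 to 57182150, with probes at 1.72, 1.78 and 2.20 and mean signals of 8737 (IP) and 2370 (IgG). These probes were bright, at the 98.0th percentile of windows. Its near-start value was 1.10 over 8 probes and its upstream value -0.22 over 3. ZNF584 had a window of 1.83, 141 bp upstream, from 63611550 to 63611866, with probes at 1.77, 1.82 and 1.89 and signals of 9313 and 2647. Its near-start value was 1.01 over 12 probes. ZNF613 had a window of 1.67, 109 bp upstream from 57122175 to 57122586, where the 3 probes differed by little (1.61, 1.69 and 1.72) and the signals of 14104 and 4379 were among the brightest of the array. In these 3 genes the IP excess covered 4 to 6 overlapping windows and no window was depleted. Only 7 of the 141 genes had a near-start value of 1 or more (4.96%, compared with 2.87% of the other chromosome 19 genes and 2.85% of all genes of the array): ZNF649, ZNF613, ZNF653, ZNF473, ZNF350, ZNF114 and ZNF584.

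ZNF653, which encodes a known co-repressor of the nuclear receptor SF-1, had a window of 1.62 centered 882 bp inside the gene from 11476635 to 11477118, and a near-start value of 1.20 over 6 probes. ZNF628 reached 1.65 at 144 bp inside the gene and ZNF566 1.61 at 451 bp upstream. ZNF566 paired a near-start value of 0.86 with an upstream value of -0.64. ZNF432 had a highest window of 1.68, 640 bp upstream, with probes at 1.10, 1.88 and 2.06. Its lowest window of -1.83 lay in its annotated range too, from 57228277 to 57228611, 15304 bp inside the gene and 5025 bp upstream of its neighbor ZNF614, which shares it. ZNF614 therefore held both that depleted window and one of 1.31 at its start, where 3 probes read 1.29, 1.32 and 1.33. TSHZ3 (ZNF537 on the array) and ZNF536, a brain-expressed zinc finger gene, gave 1.85 and 1.64 from dim probes, at percentiles 25.8 and 15.03 of the array's windows. Both also held depleted windows, 9 in TSHZ3 and 8 in ZNF536, so they had large values of either sign. With normexp the window of ZNF536 was 0.92, below 2-fold.

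The lowest windows were upstream. ZNF304, a KRAB gene, had a mean of -3.24 at 2516 bp upstream, from 62551829 to 62552549, with probes at -4.66, -2.88 and -2.18 and signals of 75.6 (IP) and 421 (IgG). This window was very dim, at the 2.36th percentile. At its start the same gene had a highest window of 0.34. ZNF471 had -2.09 at 2809 bp upstream and ZNF225 -1.96 at 4155 bp upstream. Their upstream values were -1.47 over 5 probes and -1.40 over 10, while their near-start values were 0.14 and 0.25. An upstream value of -1 or less was found in 11 of 97 ZNF genes (11.3%), compared with 2.20% of the other chromosome 19 genes and 7.67% of all genes of the array: ZNF471, ZNF225, ZNF155, ZNF333, ZNF529, ZNF677, ZNF599, ZNF235, ZNF304, ZNF415 and ZNF211. Among them, ZNF599 had 0.58 near the start and -1.08 upstream, the latter over 3 probes, and its enriched window of 1.34 was centered 148 bp inside the gene. At the other end, ZNF583 and ZNF446 had upstream values of 1.09 and 1.08 with near-start values of 0.02 and 0.26.

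The 4 genes with the lowest maxima had no window above 0. These were ZNF587 at -0.49, ZNF43 at -0.44, ZNF137 at -0.42 and ZNF442 at -0.31, and they had only 2, 6, 3 and 6 windows.

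By a gap of over 1 Mb between neighbors, the genes fell into 17 clusters, of which 7 held at least 5 genes and 149 genes in all. Cluster neighbors can share probes and are not replicates. The backgrounds for the cluster counts below are 42.6% enriched and 19.8% depleted in the other chromosome 19 genes. Over all genes of the array they are 54.8% and 50.4%. The largest, from ZNF628 to ZNF42 (now MZF1) near the end of the long arm, held 49 genes. Of its 48 genes with a window, 16 were enriched (33.3%) and 15 depleted (31.2%). Among the 7 clusters of at least 5 genes, the 25 genes from ZNF175 to ZNF331 had the most enriched genes for their number (11 of 24, 45.8%). This share lay between the 2 backgrounds. The cluster had 6 depleted genes (25.0%) and an upstream median of 0.07. In this cluster the neighbors ZNF649, ZNF613 and ZNF350, within 94357 bp, had near-start values of 1.30, 1.23 and 1.10, and next to them ZNF615, ZNF614 and ZNF432 had 0.45, 0.69 and 0.71. All 6 had an enriched window, with highest windows between 1.31 and 1.90. This run was chosen after its values were seen. Farther along, the 8 genes with a window from ZNF528 to ZNF702 reached no higher than 0.70, and 6 of them had at most 3 windows.

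The 21 genes from ZNF575 to ZNF342, which include ZNF224, a KRAB repressor known as a WT1 partner, had the lowest upstream median of the 7 clusters. Only 3 of 20 had an enriched window and 7 a depleted one. The upstream median was -0.62 over 11 genes, all of which were below 0, while the near-start median was 0.21. The highest window of this cluster was 1.24 in ZNF342 (ZNF296), 2717 bp upstream and shared with GEMIN7. With only probes of a single gene it was 0.97, below 2-fold. The 15 genes from ZNF565 to ZNF573 had 6 enriched and 7 depleted genes of 14 and an upstream median of -0.37 over 9 genes. In the cluster from ZNF101 to ZNF257, ZNF101 was the only one of 9 genes with an enriched window (11.1%), the lowest such share of the 7 clusters. The median of the highest windows was 0.19. Its genes had few windows: ZNF85 had 3, ZNF100 had 2 and ZNF257 had 1. In the cluster from ZNF653 to ZNF490, 5 of 13 genes were enriched (38.5%) and 2 depleted (15.4%). In that from ZNF557 to ZNF562, 3 of 12 were enriched (25.0%) and 1 depleted (8.33%). The highest window of the last cluster, 1.37 in ZNF317, was 9226 bp upstream, dim (9.53rd percentile) and shared with the olfactory receptor gene OR7G3, and with normexp it was 0.63.

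**Figure D4:**
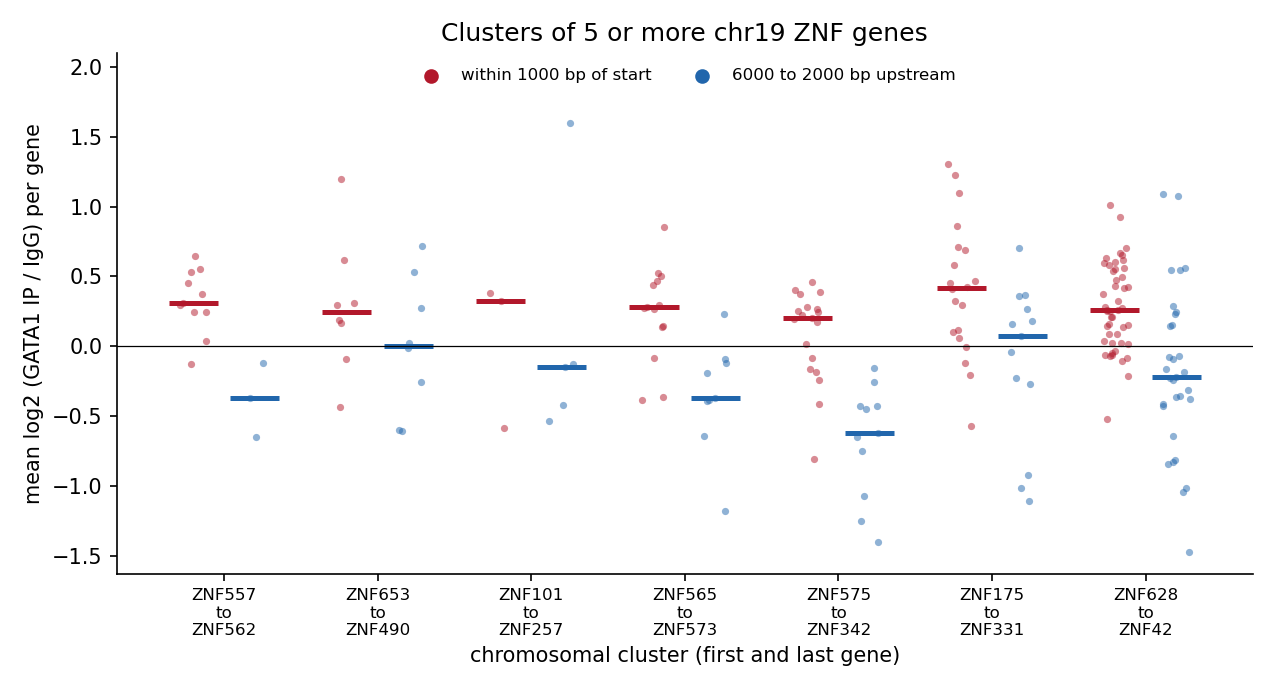
Mean log2(IP/IgG) of each gene within 1000 bp of its start (red) and from 6000 to 2000 bp upstream (blue) in the 7 clusters with at least 5 chromosome 19 ZNF genes, in chromosome order and named by their first and last gene; horizontal bars are medians. The near-start medians lie between 0.21 and 0.42 in all 7 clusters, and the upstream medians between -0.62 (ZNF575 to ZNF342) and 0.07 (ZNF175 to ZNF331). Some rest on few genes: 3 near the start and 5 upstream in ZNF101 to ZNF257, and 3 upstream in ZNF557 to ZNF562.

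ZNF genes with a known role gave values spread over the whole range. ZNF175 (OTK18, known to repress the HIV-1 promoter) had a window of 1.31 at 97 bp upstream, from 56766067 to 56766369, with probes at 0.77, 1.46 and 1.69 and an upstream value of -0.04. ZNF160, a KRAB gene, reached 1.32 at 49 bp inside the gene and ZNF136 1.09 in a window shared with ZNF625. ZNF382, reported as a tumor suppressor, reached 0.94 at 174 bp inside and ZNF331, an imprinted gene, 0.82 at 3929 bp upstream. ZNF224 and ZNF444, a SCAN domain gene, had 0.74 and 0.70 at their starts. ZNF274, which directs SETDB1 to the bodies of other ZNF genes, reached 0.67 and had a lowest window of -1.21. ZNF146 (OZF) had 0.54, ZNF45 0.13 and ZNF85 0.06. Of the 14 genes on this list, which also holds ZNF536, ZNF43 and ZNF296, 5 (35.7%) had an enriched window, near the 35.2% of all ZNF genes here.

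The partners of KRAB proteins were looked at from a list of 18 genes, of which 17 had a window on 1 of the 2 arrays, 12 on chIP2 and 5 on chIP1. The list includes ZNF274, itself 1 of the ZNF genes described here, which is counted on chIP2 and had a depleted window. An enriched window was found in 4 (the DNA methyltransferase DNMT1 at 1.55, the HP1 gene CBX3 at 1.55, and the NuRD remodelers CHD4 at 1.38 and CHD3 at 1.09) and a depleted one in 7. The shares were 25% and 50% of the 12 on chIP2, where 54.8% and 50.4% of all genes had such windows, and 20% and 20% of the 5 on chIP1, where 59.4% and 55.5% did. TRIM28, on chromosome 19, reached 0.92 at 1236 bp inside the gene, and SETDB1 reached 0.78. The median of the highest windows was 0.84 on chIP2 and 0.88 on chIP1, below the 1.06 and 1.12 of all genes of these arrays.

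GATA matches were about as frequent in the ZNF promoters as in those of the other genes of the array. Of the 146 with a RefSeq promoter of 250 bases before and 50 after the start, 27 (18.5%) held at least 1 of the 4 GATA hexamers on either strand, and hexamers that overlap were each counted. The share was 14.9% of 764 other chromosome 19 promoters, 19.2% of promoters of genes on other chromosomes of the array and 25.5% of all 27305 promoters of that length in the table. The ZNF promoters had a median GC content of 60.7% compared with 64.3% in the other chromosome 19 genes, and a CpG observed to expected ratio of 0.80 compared with 0.75. Matches were sought only in these promoters, while the windows compared next were centered up to 1000 bp from the array's start. A gene counted as without a match can thus hold one elsewhere under its windows. An enriched window within 1000 bp of the start was found in 6 of 18 ZNF genes with a match (33.3%) and in 25 of 108 without one (23.1%). In the other chromosome 19 genes the shares were 29.4% and 24.4%. In genes on other chromosomes of the array they were nearly equal, at 33.5% of 1000 and 33.0% of 4288. The near-start value had a median of 0.21 in 18 ZNF genes with a match and 0.28 in 105 without, so the 2 measures differed in direction. Its medians with and without a match were 0.33 and 0.26 in the other chromosome 19 genes. On other chromosomes of the array they were 0.11 and 0.22. The 6 promoters shown above were chosen by their windows and by having or lacking a match, so they cannot serve for this comparison.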

How the data were processed

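ChIP-on-chip was measured on 2 Agilent promoter arrays of different probes, 1 hybridization each, with GATA1 IP in Cy5 and normal goat IgG in Cy3. The authors deposited scanner output of Agilent Feature Extraction 9.5.3.1 with spot intensity, background-subtracted, detrended and dye-normalized processed intensity, and a log10 ratio of red over green per probe; the deposited value table holds the same log10 ratios. The genome build is not given in the sources used here. Only array chIP2 holds probes of these genes, and array chIP1 served for comparison. The number of arrays limits the precision, and p-values were not computed.

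For this report, log2(IP/IgG) was taken from the processed intensities of probes without outlier flags and well above background in at least 1 channel (236864 of 237201 genomic probes on chIP2), set to median 0 per array and averaged over 3 neighboring probes at most 1000 bp apart. A window counted for each gene to which the array assigns 1 of its probes. Thresholds were 2-fold on either side. Members and lists were chosen with earlier results of these data known. Named genes are the 8 with the highest window, the 4 with the lowest maximum, the 4 with the lowest window, the 5 with the highest window among windows brighter than the array's median, the top gene of each cluster of at least 5, 14 genes with a known role, and KRAB partners; others named were chosen after their values were seen. Clusters end at a gap of over 1 Mb. Promoter sequences are from RefSeq (GRCh38.p14), matched by symbol. The window scoring was checked on simulated noise much narrower than the spread of the array, with planted shifts far past 2-fold. That check covers the code and does not measure false calls at the array's spread. Alternatives were loess, normexp with offset 50, the value table, 2 filters on dim probes, single probes and 5-probe windows, 1.5-fold and 3-fold thresholds, removal of the distance trend in bins of 500 bp, probes of a single gene, chromosome 19 set to median 0, and windows within 1000 bp of the start. Python 3.11.15 with numpy 2.4.6 and pandas 2.3.3, and R 4.3.3 with limma 3.58.1 were used.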

Additional observations from a re-analysis of the deposited data

How the results depend on the processing

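With loess, the value table, no filter or a stricter filter on dim probes, removal of the distance trend, probes of a single gene and chromosome 19 set to median 0, the counts of ZNF genes with an enriched window (44 to 56) and with a depleted window (46 to 62) stayed within 1.5 times the reported 56 and 50. With normexp the depleted count was 19. The counts of enriched and depleted genes were 109 and 107 with single probes, 29 and 23 with 5-probe windows, 112 and 98 at 1.5-fold, 13 and 9 at 3-fold, and 36 and 8 for windows within 1000 bp of the start, changes that follow from the construction of these settings. The percentage of ZNF genes minus that of other chromosome 19 genes was -7.40 for enriched and 11.6 for depleted windows. Its sign turned only with windows within 1000 bp of the start, where the differences were 0.58 and -0.0169, and for depleted windows it was 3.31 at 3-fold. For enriched windows it was -2.25 with normexp, -1.01 at 3-fold, -3.57 with 5-probe windows, -4.50 with chromosome 19 set to median 0 and -11.7 with single probes. The median highest window differed by -0.10 between the groups, by -0.0203 with normexp, -0.17 with single probes and -0.15 without the distance trend, and by 0.0597 within 1000 bp of the start. The median of the mean of all probes differed by -0.16, and by 0.0198 within 1000 bp of the start. The near-start minus the upstream value, added after the data had been seen, differed by 0.33 in the medians. It differed by 0.25 to 0.35 with loess, normexp, the value table, both filters, probes of a single gene and an upstream region from 4000 to 1000 bp, and by 0.20 against chromosome 19 genes within 100 kb of a ZNF gene. For the 32 named genes, 270 of 287 recomputed highest windows stayed on their side of 2-fold and 17 changed side, 5 of them with probes of a single gene, 5 with single probes and 4 with 5-probe windows. No paired analysis was possible because every probe was read in 1 hybridization and the arrays differ in their probes. Of the upstream ZNF probes, 15.6% lay in the dimmest of 4 brightness classes and 23.6% in the brightest, and the upstream difference was smallest in the brightest. Whether member probes match other genes of the family was not tested, since probe sequences were not analysed here, and the number of zinc fingers per protein was not analysed here.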
